A study of Rattus norvegicus with 10 samples.

Results

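The chemokine and chemokine receptor family was taken by name, as every protein-coding row of the deposited expression table whose symbol is Ccl, Ccr, Cxcl, Cxcr, Cx3cl, Cx3cr, Xcl, Xcr or Ackr followed by a number. That gave 55 of the 32545 genes in the table, made up of 34 ligands, 18 signalling receptors and 3 atypical receptors. Bulk RNA sequencing of the kidney cortex had been done on 5 libraries from Dahl salt-sensitive rats (SS/JrHsdMcwi) given 4% NaCl with 2% oxonic acid and 5 from rats given 4% NaCl with vehicle, each for 3 weeks. Oxonic acid inhibits uricase, the enzyme that breaks down uric acid in rats. Every animal is labelled wildtype, carried a telemeter implanted at 8 to 9 weeks of age, and ate 0.4% NaCl during 4 days of baseline recording. Both sexes were used, but the labels give no sex for any one library. Nor do they tie each library to a separate rat, so the p-values measure only the spread between these libraries, which may in part be technical.

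Chemokines are small secreted or membrane-tethered proteins that attract leukocytes, and they act through G protein-coupled receptors on the arriving cells. Atypical receptors bind the same ligands without G protein signalling and mostly remove them. In the kidney, tubular epithelium, endothelium and resident macrophages are known sources of chemokines, and infiltrating T cells and macrophages are known carriers of the receptors.

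Reads in genes numbered 14536674 to 18508428 in oxonic acid libraries and 15242469 to 18279786 in vehicle libraries. Markers of proximal tubule and podocytes, both cortical cell types, were detected in all libraries. Vehicle library 4 stood apart on the first principal component (39.8, with the other libraries between -13.7 and 15.5). Sample-name numbers fall into 3 runs, which the labels do not call batches. The first run holds oxonic acid libraries 1, 2 and 3 and no vehicle library, the next holds oxonic acid library 4 and vehicle libraries 1, 2 and 3, and the last holds oxonic acid library 5 and vehicle libraries 4 and 5.

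Levels were given as FPKM, fragment counts scaled to gene length and to the size of the library. A mean of at least 0.5 FPKM over the 10 libraries was reached by 34 of the 55 genes (25 ligands, 8 signalling receptors and 1 atypical receptor), and these were tested. The other 21 were too low to judge. Differences were tested with limma on log2(FPKM + 0.5), oxonic acid minus vehicle, which understates the change of low genes, over all 14508 genes that passed the same mean.

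No chemokine or receptor passed an adjusted p of 0.05, and neither did any other gene, so the share of all tested genes called was 0%. The adjusted p of the 34 family members lay between 0.335 and 0.987. At an unadjusted p under 0.05, 4 of the 34 (11.8%) were picked out, against 1377 (9.49%) of all tested genes. All 4, Ccl6, Cxcl11, Ccr7 and Ccl28, had lower values under oxonic acid, a direction that 5.17% of all tested genes showed at that threshold. A count of 4 of 34 is close to the background share. At a filter of 1 FPKM, which leaves out Ccr7, 3 of 29 members passed that threshold (10.3%, against 9.67% of all tested genes). A block for the runs left 1 member at that threshold, Cxcr5 (2.94% of members, against 6.69% of all tested genes). Cxcr5 had higher values under oxonic acid, and Ccl6, Cxcl11, Ccr7 and Ccl28 no longer passed. Without vehicle library 2, 7 members passed it (20.6%, against 7.78% of all tested genes), and 7 also passed without vehicle library 3 (20.6%, against 9.06%). In kidney cortex taken whole, fewer cells of a type and less RNA per cell cannot be told apart.

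The sign of the estimate was counted in the family and over the whole table. It was below 0 for 22 of the 34 members (64.7%) and for 6997 of the 14508 tested genes (48.2%). The median log2 difference was -0.13 over the members and 0.01 over all tested genes, with members between -0.59 and 0.44. The median standard error of the log2 difference of 1 gene was 0.172 over the members and 0.104 over all tested genes. Values of the 2 diet groups did not overlap for 1 member, Ccr7, which was lower under oxonic acid, as 0.965% of all tested genes were. Ccr7 passed the 0.5 FPKM filter only through its vehicle values, as its oxonic acid mean was 0.447 FPKM. The same held for Ccl26, counted among the members below 0, with an oxonic acid mean of 0.474 FPKM. No member stood wholly above vehicle, as 0.944% of all tested genes did.

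**Figure D1:**
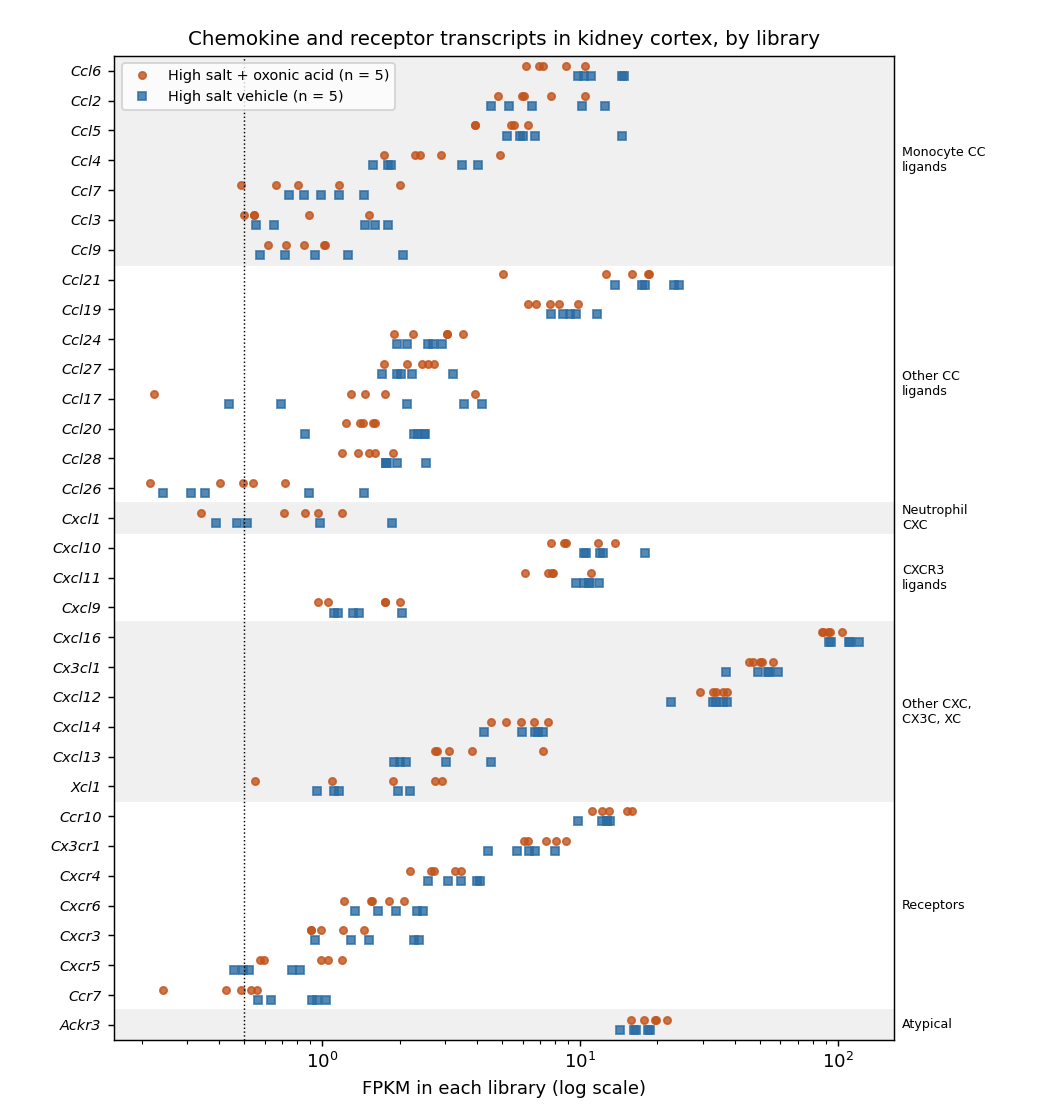
FPKM of 33 tested chemokines and receptors in each library, on a log axis, grouped by role, showing oxonic acid libraries as circles above vehicle libraries as squares and a dotted line at 0.5 FPKM. Cxcl16, Cx3cl1 and Cxcl12 stood highest, and the circles and squares of every plotted gene except Ccr7 overlapped in range.

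Ordered by level per length, the cortex was led by 3 ligands. Cxcl16, which is made as a membrane-bound protein and recruits Cxcr6-bearing T cells, exceeded 93.8% of tested protein-coding genes. With Cx3cl1 and Cxcl12 it made up between 63.0% and 70.0% of the summed ligand FPKM in oxonic acid libraries and between 57.3% and 66.9% in vehicle libraries. That sum over all 34 ligands was 252.7 to 281 FPKM under oxonic acid and 274.5 to 328.8 FPKM under vehicle, so the ranges overlapped.

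Cxcl16 had 87.2, 87.6, 93.7, 92.2 and 104 FPKM in oxonic acid libraries 1 to 5, against 93.9, 111, 92.3, 111 and 121 FPKM in vehicle libraries 1 to 5. All 5 oxonic acid values were below the vehicle median, although the ranges overlapped. The means were 93.02 ± 6.96 FPKM under oxonic acid and 105.9 ± 12.4 FPKM under vehicle (SD, n = 5 each). The log2 difference was -0.18 (95% interval -0.36 to 0.00, not corrected for the number of genes, as for every interval given here), with limma adjusted p = 0.525 and an exact two-sided permutation p of 0.0635. The smallest p that all arrangements of 5 libraries against 5 can give is 0.00794. Permutation p-values here and below are not corrected for the number of genes.

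Cx3cl1, fractalkine, is the other membrane-bound chemokine and the ligand of Cx3cr1 on monocytes and macrophages. It had 46.8, 56.2, 50.9, 45.1 and 49.8 FPKM under oxonic acid, against 49.3, 58.6, 54.4, 37.0 and 53.6 FPKM under vehicle. The oxonic acid values lay inside the vehicle range. For Cx3cl1 the log2 difference was -0.01 (95% interval -0.26 to 0.24, limma adjusted p = 0.987). Cxcl12, the stromal ligand of Cxcr4, had 37.1, 36.0, 33.7, 32.8 and 29.3 FPKM under oxonic acid, against 33.9, 36.0, 37.3, 22.5 and 33.0 FPKM under vehicle. Again the oxonic acid values fell inside the vehicle range, whose lowest value was library 4 for both genes. The log2 difference of Cxcl12 was 0.07 (95% interval -0.21 to 0.35, limma adjusted p = 0.872).

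Cxcl14, an epithelial chemokine, averaged 5.97 FPKM under oxonic acid and 6.20 FPKM under vehicle. Cxcl13, which draws B cells through Cxcr5, had the highest positive estimate of the family at 0.44 (95% interval -0.15 to 1.03, limma adjusted p = 0.609). Its level was 7.19 FPKM in oxonic acid library 1 and no more than 3.81 FPKM in the other oxonic acid libraries, against 1.91 to 4.54 FPKM in vehicle libraries. Without oxonic acid library 1 the estimate for Cxcl13 was 0.22, and under a block for the runs it was 0.12. Xcl1, a T cell and NK cell product that attracts cross-presenting dendritic cells, averaged 1.84 FPKM under oxonic acid and 1.48 FPKM under vehicle on 4 to 24 reads a library.

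Of the 8 CC ligands that attract monocytes and macrophages, 7 were tested, 6 had estimates below 0, and their median log2 difference was -0.20. Ccl6, a rodent chemokine made by macrophages and myeloid cells, had the most negative estimate of the whole family. It had 6.96, 6.16, 8.82, 10.5 and 7.23 FPKM under oxonic acid, against 11.1, 14.8, 10.4, 14.6 and 9.83 FPKM under vehicle. Oxonic acid library 4 alone reached into the vehicle range, and the other 4 lay below its lowest value. Means were 7.93 ± 1.72 FPKM under oxonic acid and 12.2 ± 2.39 FPKM under vehicle (SD, n = 5 each). Ccl6 thus had a log2 difference of -0.59 (SE 0.156, 95% interval -0.93 to -0.25), with limma adjusted p = 0.335 and an exact permutation p of 0.0238.

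Between libraries of the same run, the log2 difference of Ccl6 was -0.18 for oxonic acid library 4 against vehicle libraries 1, 2 and 3, and -0.69 for oxonic acid library 5 against vehicle libraries 4 and 5. A block for the runs leaves only these within-run contrasts, and under it the estimate for Ccl6 was -0.42 (limma adjusted p = 0.752).

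Ccl2, the main monocyte attractant, showed no difference larger than its spread. It had 5.96, 6.10, 10.5, 4.81 and 7.76 FPKM under oxonic acid, against 4.54, 6.50, 5.32, 10.2 and 12.5 FPKM under vehicle. High and low libraries occurred in both diets. The log2 difference was -0.10 with a 95% interval of -0.70 to 0.51 (limma adjusted p = 0.926), and without vehicle libraries 4 and 5 the estimate was 0.30. Ccl5, a T cell and macrophage product, averaged 5.03 FPKM under oxonic acid and 7.67 FPKM under vehicle, and the vehicle mean rested in part on 14.6 FPKM in library 4. Its log2 difference was -0.48 (95% interval -1.02 to 0.06, limma adjusted p = 0.555), and without that library it was -0.24. Ccl4, a product of macrophages and T cells, averaged 2.85 FPKM under oxonic acid and 2.55 FPKM under vehicle. Ccl3, Ccl7 and Ccl9 averaged 0.801, 1.03 and 0.846 FPKM under oxonic acid, against 1.22, 1.04 and 1.11 FPKM under vehicle, on 6 to 41 reads a library.

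Of the 12 CC ligands of lymphoid tissue, barriers and type 2 responses, 8 were tested and 6 had estimates below 0. Ccl21 and Ccl19 are the ligands by which dendritic cells and T cells bearing Ccr7 are guided along lymphatics. Ccl21 had 5.05, 12.7, 18.4, 18.5 and 15.9 FPKM under oxonic acid, against 17.5, 18.0, 24.3, 23.1 and 13.6 FPKM under vehicle. Oxonic acid library 1 was the lowest by far, and the other values of the 2 diets overlapped. The log2 difference was -0.54 (95% interval -1.22 to 0.15, limma adjusted p = 0.594), and without oxonic acid library 1 it was -0.22. Ccl19 averaged 7.77 FPKM under oxonic acid and 9.35 FPKM under vehicle (log2 difference -0.26, limma adjusted p = 0.550).

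Ccl28, a mucosal epithelial ligand of Ccr10, had 1.60, 1.19, 1.89, 1.52 and 1.38 FPKM under oxonic acid, against 1.79, 1.77, 1.77, 2.54 and 1.95 FPKM under vehicle. Oxonic acid library 3 was the sole one inside the vehicle range. Means were 1.52 ± 0.259 FPKM under oxonic acid and 1.96 ± 0.329 FPKM under vehicle (SD, n = 5 each). Its log2 difference was -0.29 (SE 0.126, 95% interval -0.57 to -0.01), with limma adjusted p = 0.516 and an exact permutation p of 0.0317. Within runs it was -0.17 for oxonic acid library 4 against its run and -0.53 for oxonic acid library 5 against its run. Without vehicle libraries 4 and 5 the estimate was -0.18. Ccl27, which also binds Ccr10, averaged 2.32 FPKM under oxonic acid and 2.22 FPKM under vehicle. Ccl27 overlaps Il11ra1 on the opposite strand, a gene with a mean of 32.9 FPKM, and the sources used here do not settle whether reads were counted by strand.

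The eotaxins Ccl24 and Ccl26, eosinophil attractants, averaged 2.76 and 0.474 FPKM under oxonic acid, against 2.46 and 0.649 FPKM under vehicle. Ccl20, which draws Th17 cells through Ccr6, averaged 1.45 FPKM under oxonic acid and 2.10 FPKM under vehicle (log2 difference -0.36, limma adjusted p = 0.594), with an estimate of -0.58 without vehicle library 3. Ccl17, a ligand of Ccr4, spanned 0.223 to 3.91 FPKM under oxonic acid and 0.438 to 4.17 FPKM under vehicle. Only 1 to 19 reads a library lay behind Ccl17, whose gene model is 282 bases long. Its log2 difference had a 95% interval of -1.41 to 0.96.

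The 3 CXCR3 ligands, Cxcl9, Cxcl10 and Cxcl11, are induced by interferon and recruit activated T cells. Their genes lie side by side within 39.7 kb of chromosome 14 in the deposited coordinates (17195014 to 17234712, all on the plus strand, genome build not given in the sources used here). Cxcl11 had 7.85, 6.11, 7.82, 11.1 and 7.53 FPKM under oxonic acid, against 9.70, 10.9, 10.4, 11.9 and 10.8 FPKM under vehicle. Oxonic acid library 4 lay within the vehicle range and the other 4 below it. Means were 8.08 ± 1.83 FPKM under oxonic acid and 10.7 ± 0.793 FPKM under vehicle (SD, n = 5 each). This gave a log2 difference of -0.41 (SE 0.126, 95% interval -0.69 to -0.13), with limma adjusted p = 0.388 and an exact permutation p of 0.0397. Within runs the direction was not shared, at 0.10 for oxonic acid library 4 and -0.56 for oxonic acid library 5, and blocking on runs gave an estimate of -0.21 (limma adjusted p = 0.800).

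Cxcl10 had 11.8, 7.71, 13.8, 8.82 and 8.70 FPKM under oxonic acid, against 11.99, 18.0, 10.6, 12.3 and 10.4 FPKM under vehicle. Oxonic acid libraries 2, 4 and 5 were below every vehicle library, and libraries 1 and 3 were among them. The log2 difference was -0.31 (95% interval -0.70 to 0.08, limma adjusted p = 0.594), and without vehicle library 2 it was -0.18. Cxcl9 was lower in level than its neighbours per length, at a mean of 1.51 FPKM under oxonic acid and 1.40 FPKM under vehicle (log2 difference 0.07, limma adjusted p = 0.927). Art3 overlaps Cxcl10 and Cxcl11 on the opposite strand at a mean of 1.68 FPKM.

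The promoters of these neighbours are printed for their letters alone. Cxcl11 and Cxcl10 had negative estimates and Cxcl9 did not, but whether the estimates differ between these genes was not tested. The windows are the 250 bases before each RefSeq transcription start in build GRCr8, plus strand, at chr14:15973478-15973727 for Cxcl11, chr14:15988816-15989065 for Cxcl10 and chr14:16006916-16007165 for Cxcl9. Capitals mark matches, on either strand, to a kappaB-type motif (GGGANNNNCC), an interferon-stimulated response motif (GAAANNGAAA) or a TATA motif (TATAAA). A match counts at any distance from the start, so a TATA motif is not by itself a TATA box. In Cxcl10, the last capital stretch holds overlapping kappaB matches on both strands.
Cxcl11: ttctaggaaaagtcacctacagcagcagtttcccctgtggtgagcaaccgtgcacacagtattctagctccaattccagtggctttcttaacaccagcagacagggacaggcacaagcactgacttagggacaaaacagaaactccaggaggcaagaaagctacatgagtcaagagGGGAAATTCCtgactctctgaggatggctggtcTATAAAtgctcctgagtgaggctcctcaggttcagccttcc
Cxcl10: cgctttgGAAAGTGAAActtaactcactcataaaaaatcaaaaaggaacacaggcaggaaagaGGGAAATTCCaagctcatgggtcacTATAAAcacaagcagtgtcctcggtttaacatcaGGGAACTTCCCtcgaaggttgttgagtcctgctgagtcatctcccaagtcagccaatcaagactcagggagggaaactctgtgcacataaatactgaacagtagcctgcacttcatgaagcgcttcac
Cxcl9: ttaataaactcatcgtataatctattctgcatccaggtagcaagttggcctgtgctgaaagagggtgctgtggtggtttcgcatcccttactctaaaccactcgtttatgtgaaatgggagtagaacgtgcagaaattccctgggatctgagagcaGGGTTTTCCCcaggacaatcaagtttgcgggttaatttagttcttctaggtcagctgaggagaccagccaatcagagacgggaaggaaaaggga
The Cxcl11 window holds 1 kappaB-type match starting 74 bases before the start and a TATA motif at 41. The Cxcl10 window holds an interferon motif at 243, kappaB-type matches at 187, 128 and 127, and a TATA motif at 162. The Cxcl9 window holds 1 kappaB-type match, on the minus strand, at 94 and no TATA motif in these letters. Motif matches describe the letters in the window and nothing about binding.

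Over the 42 family members with a RefSeq promoter entry, 16 (38.1%) held the kappaB-type motif, against 16.4% of all 33469 promoters of the same length. Those promoters were not limited to protein-coding genes, as the members were, and enrichment in the family was not tested. The TATA motif was found, on either strand and at any distance, in 11 members (26.2%), against 12.9% of all promoters. In Ccl9 and Cxcl10 it began 165 and 162 bases before the start. The interferon motif was found in 2 members, Ccl19 and Cxcl10 (4.76%), against 3.41% of all promoters. Of the 4 members picked out at the unadjusted threshold, Cxcl11 held the kappaB-type motif, Ccl6 and Ccl28 did not, and Ccr7 had no entry. Ccl6 is shown as the member with the most negative estimate, at chr10:68883367-68883616 on the minus strand, read 5′ to 3′ towards the start. Its only match, a TATA motif 32 bases before the start, is in capitals.
Ccl6: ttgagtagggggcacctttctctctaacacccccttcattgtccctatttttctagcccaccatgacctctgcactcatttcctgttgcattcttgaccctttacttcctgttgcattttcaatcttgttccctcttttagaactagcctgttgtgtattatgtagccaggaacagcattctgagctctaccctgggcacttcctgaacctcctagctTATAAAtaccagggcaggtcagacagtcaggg

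The neutrophil-attracting CXC ligands Cxcl1, Cxcl2, Cxcl3 and Cxcl6 form another group of neighbours on chromosome 14, spread over 131 kb in the deposited coordinates. Cxcl1 alone was tested, at 0.814 FPKM under oxonic acid and 0.845 FPKM under vehicle (log2 difference 0.03, 95% interval -0.60 to 0.67, limma adjusted p = 0.981). It rested on 5 to 28 reads a library. Summed over each diet group, Cxcl2, Cxcl3 and Cxcl6 had 3, 1 and 10 reads under oxonic acid, against 5, 4 and 32 reads under vehicle.

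Stretches from these low genes are shown because they carry the same kappaB-type letters as Cxcl10 and Cxcl11, at far lower transcript levels. They run from 120 to 61 bases before the start on the minus strand of GRCr8, at chr14:17479382-17479441 for Cxcl1, chr14:17467316-17467375 for Cxcl2 and chr14:17596478-17596537 for Cxcl6. Capitals mark GGGANNNNCC on either strand, and a capital run longer than the motif holds overlapping matches.
Cxcl1: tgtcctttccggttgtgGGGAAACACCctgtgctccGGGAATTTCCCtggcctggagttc
Cxcl2: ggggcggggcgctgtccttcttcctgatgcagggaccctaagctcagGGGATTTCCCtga
Cxcl6: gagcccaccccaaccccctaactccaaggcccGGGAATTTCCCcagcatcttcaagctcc
Cxcl1 has the motif in 2 separate stretches, and Cxcl2 and Cxcl6 in 1 each.

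**Figure D2:**
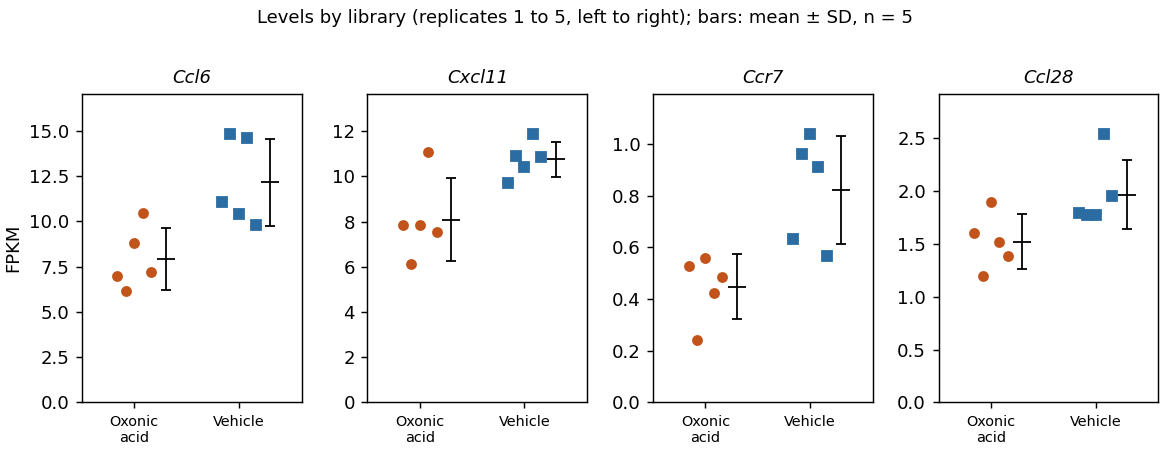
FPKM of Ccl6, Cxcl11, Ccr7 and Ccl28 in each library, showing oxonic acid libraries to the left of vehicle libraries, and the mean and SD of each group (n = 5). Oxonic acid means were lower for all 4 genes, and the groups were separate for Ccr7 alone.

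Among signalling receptors, 8 of 18 were tested and 5 had estimates below 0. Ccr7, the homing receptor of naive T cells and mature dendritic cells, had 0.530, 0.241, 0.558, 0.424 and 0.484 FPKM under oxonic acid, against 0.633, 0.961, 1.04, 0.912 and 0.565 FPKM under vehicle. Every oxonic acid library was below every vehicle library, by a narrow margin between oxonic acid library 3 and vehicle library 5. Means were 0.447 ± 0.126 FPKM under oxonic acid and 0.822 ± 0.210 FPKM under vehicle (SD, n = 5 each). Ccr7 had a log2 difference of -0.48 (SE 0.166, 95% interval -0.84 to -0.11), with limma adjusted p = 0.416 and an exact permutation p of 0.00794, the smallest possible here. These levels correspond to only 5 to 26 reads a library. The oxonic acid mean lay under the 0.5 FPKM filter, which Ccr7 passed only through its vehicle values. Within runs the estimate was -0.56 for oxonic acid library 4 and -0.32 for oxonic acid library 5.

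Ccr10, the receptor of Ccl27 and Ccl28, had the highest level of the signalling receptors. It had 11.1, 16.01, 12.2, 12.9 and 15.2 FPKM under oxonic acid, against 13.1, 9.80, 12.7, 12.2 and 12.8 FPKM under vehicle. The vehicle values other than library 2 lay inside the oxonic acid range, and the log2 difference was 0.14 (95% interval -0.10 to 0.39, limma adjusted p = 0.682), or 0.072 without vehicle library 2. Cx3cr1, the fractalkine receptor of monocytes and resident macrophages, had 8.83, 7.37, 8.07, 6.30 and 6.08 FPKM under oxonic acid, against 5.72, 7.99, 6.33, 4.42 and 6.68 FPKM under vehicle. The ranges overlapped and the log2 difference was 0.23 (95% interval -0.09 to 0.55, limma adjusted p = 0.624).

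Cxcr4, the Cxcl12 receptor carried by most leukocytes, had 3.28, 2.72, 2.66, 2.20 and 3.47 FPKM under oxonic acid, against 3.09, 4.10, 2.58, 3.98 and 3.47 FPKM under vehicle, with overlapping ranges. It averaged 2.86 ± 0.510 FPKM under oxonic acid and 3.44 ± 0.630 FPKM under vehicle (log2 difference -0.23, limma adjusted p = 0.608). Cxcr3, the receptor of Cxcl9, Cxcl10 and Cxcl11 on activated T cells, averaged 1.09 FPKM under oxonic acid and 1.68 FPKM under vehicle (log2 difference -0.42, 95% interval -0.85 to 0.02, limma adjusted p = 0.536). Cxcr6, the Cxcl16 receptor of resident T cells, averaged 1.65 FPKM under oxonic acid and 1.95 FPKM under vehicle. In the deposited coordinates it overlaps Fyco1 (mean 10.8 FPKM) on the opposite strand. Cxcr5, the B cell follicle receptor, averaged 0.883 FPKM under oxonic acid and 0.612 FPKM under vehicle (log2 difference 0.30, limma adjusted p = 0.599). Within runs its difference was 0.33 for oxonic acid library 4 and 0.78 for oxonic acid library 5.

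Ackr3, an atypical receptor that takes up Cxcl12 and Cxcl11, was higher in level than any signalling receptor. It had 19.8, 19.6, 21.9, 15.8 and 17.8 FPKM under oxonic acid, against 18.7, 16.5, 16.3, 14.3 and 18.4 FPKM under vehicle. Oxonic acid libraries 1, 2 and 3 were above every vehicle library and the other 2 were among them. Ackr3 had a log2 difference of 0.17 (95% interval -0.05 to 0.38, limma adjusted p = 0.594). Those 3 libraries form the run that holds no vehicle library, and within the other runs the difference was -0.11 for oxonic acid library 4 and 0.13 for oxonic acid library 5.

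**Figure D3:**
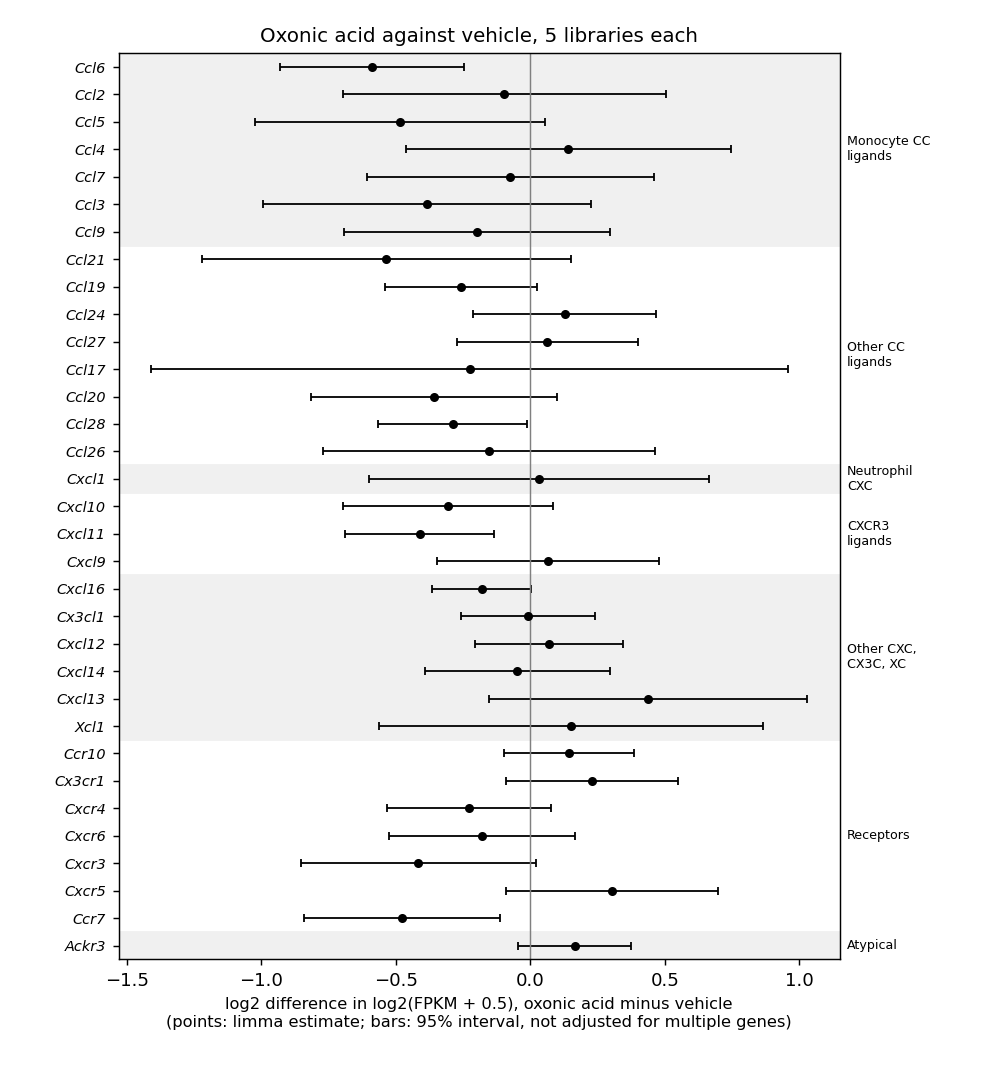
Log2 difference of FPKM + 0.5, oxonic acid minus vehicle, for 33 tested members with 95% intervals from limma (n = 5 each), grouped by role. Of the 33 points, 21 lie below 0, and 4 intervals, those of Ccl6, Cxcl11, Ccr7 and Ccl28, do not include 0.

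Set side by side, 24 textbook ligand and receptor pairs were compared, and both partners could be tested in 12. Both estimates were below 0 in 5 of the 12 pairs, both above 0 in 3, and opposite in 4. The pairs with both below 0 were Ccl21 and Ccl19 with Ccr7, Cxcl10 and Cxcl11 with Cxcr3, and Cxcl16 with Cxcr6. Pairs that share a receptor are not separate observations. The opposite pairs were Cxcl9 with Cxcr3, Ccl28 with Ccr10, Cxcl12 with Cxcr4 and Cx3cl1 with Cx3cr1. Cxcl13 and Cxcr5 were both above 0. In a further 7 pairs the ligand was tested but its receptor was too low, Ccl2 with Ccr2 and Cxcl1 with Cxcr2 among them.

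Single libraries took many of the extremes. Vehicle library 2 had the highest value of 9 of the 34 members and oxonic acid library 2 the lowest of 9, Ccl6, Cxcl11, Ccr7 and Ccl28 included. Vehicle library 4, which stood apart over all genes, was the highest in 5 members (Cxcl11, Ccl5, Ccl28, Ccl3 and Ccl9) and the lowest in 5 (Cx3cl1, Cxcl12, Ackr3, Cx3cr1 and Cxcl14).

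Of the 21 members too low to judge, 9 were ligands, 10 signalling receptors and 2 atypical receptors. Only 7 of them had a read in every library, and 13 had fewer than 10 reads in each. Ccr1 and Ccr2, the main monocyte receptors of Ccl3 and Ccl2, had 42 and 9 reads summed over oxonic acid libraries, against 85 and 10 reads over vehicle libraries. The table's Ccr2 gene model is only 286 bases long. Ccr4, a receptor of Th2 and regulatory T cells, had 12 reads under oxonic acid and 42 under vehicle, and Xcr1, a mark of cross-presenting dendritic cells, had 132 under oxonic acid and 167 under vehicle. Cxcr1 was at 0 reads in all 10 libraries, and the other neutrophil receptor, Cxcr2, had 13 reads under oxonic acid and 14 under vehicle. Of the other receptors, Ackr4, Ccr9, Ccr6, Ackr2, Ccr3 and Ccr8 had 50, 39, 31, 18, 10 and 4 reads under oxonic acid, against 62, 60, 35, 12, 19 and 11 reads under vehicle. Of the other ligands, Ccl22, Ccl12, Cxcl17, Ccl1, Ccl11 and Ccl25 had 19, 14, 12, 6, 2 and 1 reads under oxonic acid, against 38, 16, 21, 5, 2 and 5 reads under vehicle. Fewer reads were counted under oxonic acid for 17 of the 21, more for 2 and as many for 2, out of 80158152 reads in genes under oxonic acid and 82023228 under vehicle. The same count over all genes below 0.5 FPKM is not given here, so no trait of the family is read from it. With no filter on level, Ccr4 had a log2 difference of -0.49 (limma adjusted p = 0.446) and Ccr1 one of -0.43 (limma adjusted p = 0.564).

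**Figure D4:**
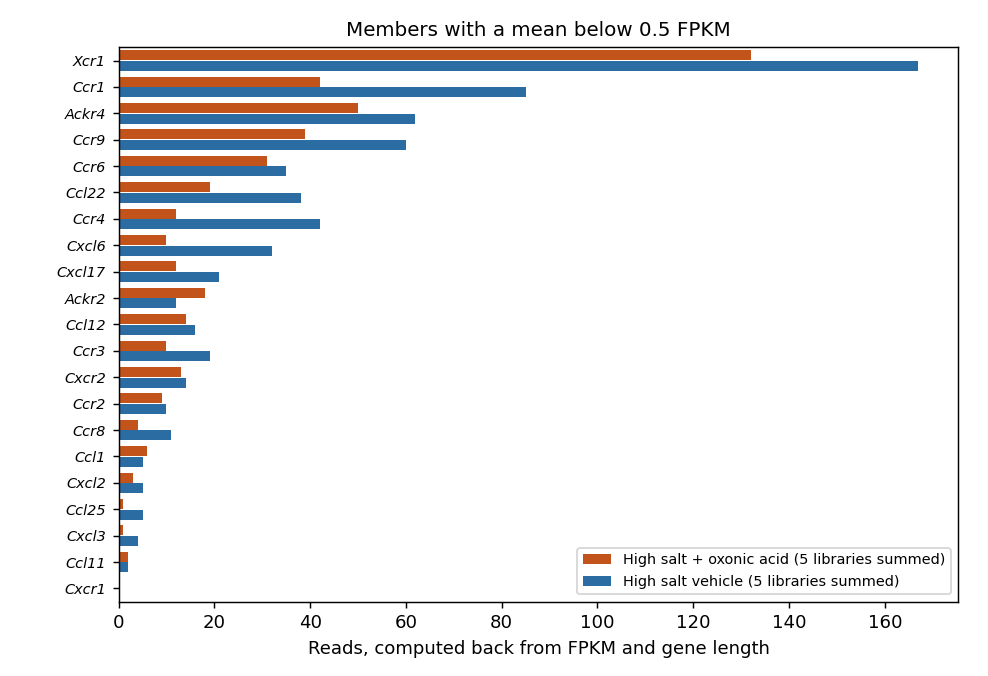
Reads summed over the 5 oxonic acid libraries (upper bar) and the 5 vehicle libraries (lower bar) for the 21 members with a mean below 0.5 FPKM. Xcr1 led with 132 reads under oxonic acid and 167 under vehicle, and Cxcr1 had none in either.

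Marker genes of the cells that make or carry chemokines had the following values, and their part in the results above was not tested. Of 13 tested macrophage and monocyte markers, 12 had estimates below 0, with a summed level of 389.5 to 490.6 FPKM in oxonic acid libraries and 446.8 to 607.5 FPKM in vehicle libraries, 58.0% of it from Lyz2 over all libraries. Marco, not tested, was at 0 throughout. Sums here and below are over the tested markers of a list. Of 11 tested T and NK cell markers, 10 were below 0, and their sum was 32.1 to 33.9 FPKM under oxonic acid and 33.5 to 51.1 FPKM under vehicle, with overlapping ranges. Cd4 alone, 53.9% of that sum over all libraries, had 17.1 to 19.8 FPKM under oxonic acid and 15.2 to 26.5 FPKM under vehicle. Cd3e, a subunit of the T cell receptor complex, averaged 1.34 FPKM under oxonic acid and 2.35 FPKM under vehicle (limma adjusted p = 0.333). In any library Cd3e reached at most 2.78 FPKM and Cd3g, another subunit, 4.74 FPKM, far below Cd4. Which cells carried Cd4 was not tested, so that sum is not a level of T and NK cells. Of 6 tested dendritic cell markers, a list that holds Ccr7 and Xcr1 themselves, 5 were below 0, summing to 10.6 to 12.5 FPKM under oxonic acid and 11.5 to 16.7 FPKM under vehicle.

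The other marker lists were of B cells, granulocytes, vessels, tubules and stroma. For B and plasma cells 1 of 9 markers could be tested, Sdc1, at 6.655 to 10.95 FPKM under oxonic acid and 5.39 to 9.28 FPKM under vehicle. For neutrophils and mast cells 3 of 10 could be tested, and the sum was 7.50 to 8.90 FPKM under oxonic acid and 7.39 to 7.95 FPKM under vehicle, mostly Kit. Endothelial markers had 1 of 9 estimates below 0, proximal tubule markers 1 of 10, thick limb and distal tubule markers 1 of 7, collecting duct markers 1 of 8, podocyte markers 1 of 6 and fibroblast and mural markers 5 of 8. Proximal tubule markers summed to 5137 to 5745 FPKM under oxonic acid and 4238 to 4928 FPKM under vehicle, and the sum was not tested. Of this sum 34.2% over all libraries was Slc34a1, at 1597 to 2021 FPKM under oxonic acid and 1441 to 1929 FPKM under vehicle. Means were furthest apart for Slc7a13, at 1090 FPKM under oxonic acid and 712 FPKM under vehicle (limma adjusted p = 0.547). Its ranges overlapped, at 733 to 1627 FPKM under oxonic acid and 245 to 948 FPKM under vehicle. Slc5a2 was the 1 marker with an estimate below 0. All 5 inner medulla markers had estimates above 0, and their sum was 99.5 to 268.8 FPKM under oxonic acid and 59.8 to 150.2 FPKM under vehicle, highest in oxonic acid library 3.

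Genes that act before and after chemokines gave no adjusted call either. Among transcription factors and cytokines that induce chemokines, 14 of 21 were tested and 12 had estimates below 0 (median log2 difference -0.15, against 0.01 over all tested genes). Cebpb, a myeloid and stress-response factor, averaged 46.0 ± 6.84 FPKM under oxonic acid and 59.7 ± 10.3 FPKM under vehicle (log2 difference -0.37, limma adjusted p = 0.414). Irf1, a transcription factor of the interferon response, averaged 13.2 FPKM under oxonic acid and 15.9 FPKM under vehicle (log2 difference -0.26, limma adjusted p = 0.513). Stat3, which carries interleukin-6 family signals, averaged 44.4 FPKM under oxonic acid and 49.8 FPKM under vehicle (limma adjusted p = 0.473). The cytokines Tnf, Ifng, Il6, Il17a and Csf2 were below 0.5 FPKM on average, and Il4 and Il13 were at 0.

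Of 23 tested genes of receptor signalling (G protein subunits, kinases, arrestins and regulators), 16 had estimates below 0, with a median of -0.07. Rgs2, which shortens G protein signals, averaged 8.74 FPKM under oxonic acid and 10.9 FPKM under vehicle (log2 difference -0.32, limma adjusted p = 0.521). Of 17 tested leukocyte adhesion genes, 13 were below 0. Cd44, a hyaluronan receptor, averaged 6.10 ± 1.49 FPKM under oxonic acid and 9.41 ± 2.10 FPKM under vehicle (log2 difference -0.59, limma adjusted p = 0.389). Icam1, the endothelial partner of leukocyte integrins, averaged 14.7 FPKM under oxonic acid and 17.3 FPKM under vehicle (limma adjusted p = 0.414), and Jam2, a junctional adhesion molecule, 8.74 FPKM under oxonic acid and 7.39 FPKM under vehicle (limma adjusted p = 0.390).

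Proteases that trim chemokines and matrix genes that hold them were split, with 8 of 15 tested estimates below 0. Ndst1, an enzyme of heparan sulfate sulfation, averaged 26.4 ± 3.62 FPKM under oxonic acid and 20.2 ± 2.91 FPKM under vehicle (log2 difference 0.38, limma adjusted p = 0.389). Sdc2, a heparan sulfate proteoglycan, averaged 113.8 FPKM under oxonic acid and 101.2 FPKM under vehicle (limma adjusted p = 0.451), and Mmp14, a membrane metalloprotease, 17.7 FPKM under oxonic acid and 19.6 FPKM under vehicle (limma adjusted p = 0.516).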

How the data were processed

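Kidney cortex RNA from 5 oxonic acid and 5 vehicle libraries was sequenced in bulk. The authors deposited one table of FPKM per gene, which was used here, with gene coordinates. The sources used here give neither its genome build nor its annotation. The submitters' processing notes name featureCounts 1.5.0-p3, StringTie 1.3.3b, fastp and HISAT2 2.0.5. FPKM times gene length gave whole reads (within 0.01) for 100% of values, so reads behind each value are known.

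FPKM were tested as log2(FPKM + 0.5) with limma 3.58.1 (R 4.3.3), Benjamini-Hochberg adjusted over the 14508 genes with a mean of at least 0.5 FPKM. The fit was checked on simulated data with planted differences larger than the estimate of any member. That check cannot show whether differences of the size seen here would be called. Single genes also had an exact two-sided permutation test, whose p-values are not corrected for the number of genes. They are printed for Cxcl16 and for members already picked out at an unadjusted p under 0.05. For those members they use the same values again and are not separate evidence. Of the tested members, 1 enters the fit and the counts, but its own values are not reported here. Named family members are the other tested ones, in full for the 4 ligands and 4 receptors with the highest means, for those at an unadjusted p under 0.05 and for Ccl2, Cx3cl1, Cxcl10, Cxcl12 and Cx3cr1, and the low ones by reads. Of the other lists, up to 3 genes at that threshold with the lowest p were named. The family, its role groups, pairs and the 16 other lists were chosen with earlier results of these data known. Promoters come from RefSeq (GRCr8), matched by symbol for 42 of 55 members. Alternatives were another pseudocount, filter or scaling, library weights, blocks and left-out libraries.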

Additional observations from a re-analysis of the deposited data

Results flagged for a closer look

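In each diet group of 5 libraries, the highest and lowest values of the 34 tested members were checked for standing apart from the others. Of the 68 groups of values checked, 6 had such a library, where chance gives about 1 in 20. Oxonic acid library 1 had 7.19 FPKM of Cxcl13, with the other oxonic acid libraries between 2.75 and 3.81 FPKM. The other 5 were vehicle libraries. Library 2 was high in Cxcl10 at 18.0 FPKM (others 10.4 to 12.3 FPKM) and low in Ccr10 at 9.80 FPKM (others 12.2 to 13.1 FPKM). Library 4 was high in Ccl5 at 14.6 FPKM (others 5.22 to 6.71 FPKM) and in Ccl28 at 2.54 FPKM (others 1.77 to 1.95 FPKM). Library 3 was low in Ccl20 at 0.863 FPKM (others 2.28 to 2.52 FPKM).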

How the results depend on the processing

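No chemokine or receptor passed an adjusted p of 0.05 in any of 23 settings, the smallest being 0.243. The limma-voom method on the reads computed back from FPKM called 0 genes and put 4 members at an unadjusted p under 0.05. Over all genes, 1 was called with library weights and 0 to 1 when libraries were left out in turn. At an unadjusted p under 0.05, the 4 members became 1 under a block for the runs of sample numbers, where 6.69% of all genes passed. That member, Cxcr5, was higher under oxonic acid. When libraries were left out, 3 to 7 members passed, against 6.98% to 10.6% of all genes. With the replicate number as a block, 6 members (17.6%) passed that threshold, against 9.96% of all genes, and none was called; the correlations of same-numbered libraries (0.0572, -0.00909, -0.0132, 0.0208 and 0.203) do not pair them. Members with estimates below 0 were 40 of 54 with no filter on level, against 22 of 34, and 18 to 23 with libraries left out. With no filter the median log2 difference was -0.099 over the members and -0.0036 over all 22312 genes. The share of those genes below 0 is not given here.

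Of 33 members, 21 kept their sign in every setting. Leaving out 1 library at a time gave log2 differences of -0.12 to 0.048 for Cx3cl1, -0.054 to 0.12 for Cxcl12, -0.25 to 0.089 for Ccl2, -0.17 to 0.037 for Cxcl14, -0.047 to 0.30 for Ccl4, -0.0069 to 0.18 for Ccl27, -0.54 to 0.12 for Ccl17, -0.018 to 0.41 for Xcl1, -0.024 to 0.17 for Cxcl9, -0.27 to 0.064 for Ccl7, -0.090 to 0.26 for Cxcl1 and -0.29 to 0.062 for Ccl26. Rescaling without mitochondrial genes gave 0.0095 for Cx3cl1. The run block gave -0.016 for Cxcl12, 0.24 for Cxcl14, -0.20 for Ccl4 and 0.46 for Ccl17. Library weights gave -0.040 for Cxcl12 and 0.19 for Ccl2. Leaving out vehicle libraries 4 and 5 together, chosen after seeing the data, gave -0.082 for Cxcl12, 0.30 for Ccl2, -4.9e-04 for Xcl1, -0.0041 for Cxcl9 and 0.038 for Ccl7. The causes of these changes of sign were not tested. Counting error weighs most on members with few reads a library, Ccr7, Ccl26 and Cxcl1 among them.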
